A study of Mus musculus with 2 samples.

Results

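The caveolin genes Cav1 and Cav2, the diaphragm gene Plvap, the ATPase genes Ehd1 to Ehd4 and the membrane-bending genes Pacsin2 and Pacsin3 were examined in sorted cells of old and young mice that the labels call lung vascular cells. They were found by gene symbol in the platform annotation, using every probe set (a group of array probes for 1 transcript) that carried only that symbol. Of the 9 genes, 8 had probe sets, 19 in all, out of 18193 named genes and 45037 probe sets. No probe set carried the Pacsin2 symbol, so Pacsin2 has no value here.

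The samples were C57BL/6J mice whose left lung lobe had been cut out (pneumonectomy), after which the right lobes that stayed in place were taken and vascular cells were sorted from them by flow cytometry. There was 1 array of cells from old and 1 of cells from young mice, both after surgery. The sources used here do not give the ages, the time after surgery, the sort markers or how many mice went into an array. Unoperated lungs were not analysed here. The comparison asks how expression in these cells differs with age after pneumonectomy. The marker genes set limits to that reading. On the old array, genes known from liver had high signals, and the labels make no mention of liver. Clec4g, a gene of liver sinusoidal endothelium, read 41144 units there and 792 on the young array. The albumin gene Alb read 8900 units and the Kupffer cell gene Clec4f 2442 on the old array, and both were below the detection floor (defined with the first results) on the young. The lymphatic regulator gene Prox1 read 6885 units on the young array but did not reach the floor on the old. The lung genes Car4, Sftpc and Aqp5 were below it on both. Other lung markers were above it on at least 1 array. These were 8 of 10 lung capillary, 4 of 8 alveolar type 1 and 3 of 6 alveolar type 2 genes on the array. Age and the makeup of the sorted cells cannot be told apart with these 2 arrays, so each ratio compares the libraries labelled old and young. With 1 array per age there is no replicate check, no test and no p-value for any difference, and the number of arrays limits the precision of every value.

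Caveolae are flask-shaped pits of the plasma membrane, abundant in lung capillary endothelium, that are built by caveolins and held in shape by a coat of cavins. Pacsins bend the membrane of the caveolar neck, and Ehd2 forms a ring there that keeps the pit at the surface. The other Ehd proteins, also ATPases related to dynamin, shape the tubules through which endocytosed receptors return to the surface. Plvap forms the diaphragms that close caveolae, transendothelial channels and the fenestrae of many capillaries, whereas the fenestrae of adult liver sinusoids are known for lacking them.

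The genes did not share a direction. Ehd3 was 31.2-fold higher on the old array, Ehd2 8.85-fold, Ehd4 2.45-fold and Pacsin3 2.34-fold higher on the young array, and Cav1, Cav2, Plvap and Ehd1 differed by less than 2-fold. A difference of 2-fold was the fixed size for counting a gene, and a signal of 73.7 units, the higher of the arrays' median signals, was the floor below which signals were not ordered. All 8 genes were above this floor on both arrays. The 1 gene of 8 on the old side and the 3 on the young side stand beside 11.7% and 10.6% of the 10004 genes above the floor on both arrays, or 22.4% either way against 4 of 8. The median log2 ratio (old minus young throughout) of the 8 genes was -0.82, beside -0.02 over those 10004 genes.

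**Figure D1:**
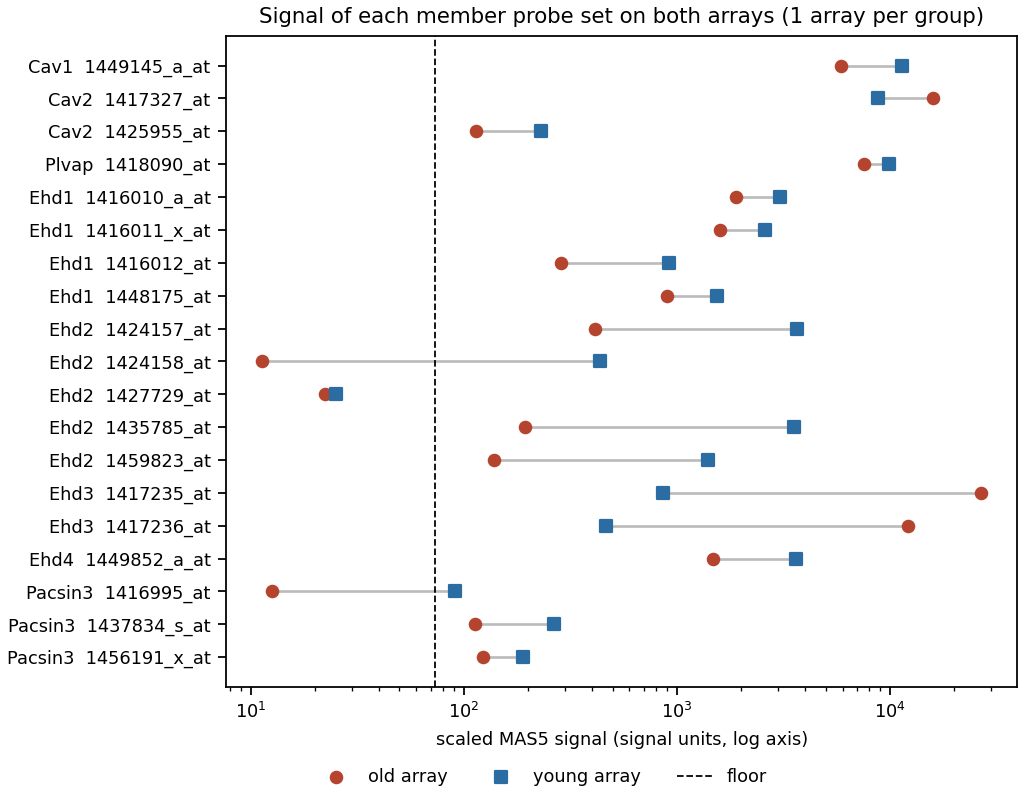
Scaled signal (log axis) of each of the 19 probe sets on the old array (circles) and the young array (squares), with the floor of 73.7 units dashed. The Ehd3 probe sets lie far higher on the old array and the Ehd2 probe sets above the floor far higher on the young array, while 1 Ehd2 probe set lies below the floor on both.

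Upstream sequences are shown for 4 genes, the neighbouring caveolin genes Cav2 and Cav1 and the family members Ehd2 and Ehd3, which had the lowest and the highest log2 ratio of the 8 genes. Each is the 250 bases before a RefSeq start site on GRCm38.p6, written 5′ to 3′ on the strand of the gene. Capitals mark matches, on either strand, to any of the motifs searched, which were an AP-1 site (TGANTCA), a GC box (GGGCGG), a box for Kruppel-like factors (CCACCC), an ETS site (CGGAAG), a forkhead site (TGTTTAC), a zinc-finger site of the Gata type (AGATAA), a Sox site (ACAATG) and a TATA box (TATAAA).
Cav2, chr6:17280935-17281184, plus strand: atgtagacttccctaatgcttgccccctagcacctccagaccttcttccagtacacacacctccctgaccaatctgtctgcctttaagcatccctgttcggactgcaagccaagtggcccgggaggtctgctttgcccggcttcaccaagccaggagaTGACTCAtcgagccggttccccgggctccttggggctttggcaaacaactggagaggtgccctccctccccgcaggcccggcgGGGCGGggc
Cav1, chr6:17306085-17306334, plus strand: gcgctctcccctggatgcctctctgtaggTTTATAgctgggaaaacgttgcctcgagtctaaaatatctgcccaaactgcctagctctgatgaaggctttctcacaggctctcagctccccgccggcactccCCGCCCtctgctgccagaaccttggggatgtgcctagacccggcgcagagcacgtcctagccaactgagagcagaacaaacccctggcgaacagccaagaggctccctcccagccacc
Ehd2, chr7:15967536-15967785, minus strand: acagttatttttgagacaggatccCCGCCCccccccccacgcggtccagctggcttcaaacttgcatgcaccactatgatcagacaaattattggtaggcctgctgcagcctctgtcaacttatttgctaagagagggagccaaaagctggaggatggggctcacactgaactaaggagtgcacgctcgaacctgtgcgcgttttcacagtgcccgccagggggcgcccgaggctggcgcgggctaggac
Ehd3, chr17:73804591-73804840, plus strand: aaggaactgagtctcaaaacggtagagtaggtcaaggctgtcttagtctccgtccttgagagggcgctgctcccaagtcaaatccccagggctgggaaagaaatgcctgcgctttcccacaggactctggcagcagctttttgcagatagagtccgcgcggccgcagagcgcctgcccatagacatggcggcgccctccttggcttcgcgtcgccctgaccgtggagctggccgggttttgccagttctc

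The Cav2 window held 1 AP-1 match, which 6.75% of the 32851 RefSeq windows of this length held, and 1 GC box, which 32.7% held. The Cav1 window held 1 GC box and 1 TATA-type match (12.4% of windows). The Ehd2 window held 1 GC box, and the Ehd3 window held no match to any of the 8 motifs. Of the 9 genes, 7 had a RefSeq window, and Plvap and Ehd1 had none. Cav1 has 2 listed start sites, of which the first is shown. A match is a description of letters, and nothing was tested against the signals.

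Cav1 encodes the main structural protein of endothelial caveolae. Its only probe set, 1449145_a_at, read 5900 units on the old array and 11355 on the young, a log2 ratio of -0.94 (1.92-fold higher on the young). Cav1 thus lay just inside the 2-fold size, and it passed it on the values as deposited (-1.08), with equal trimmed means (-1.07), with loess (-1.16) and with quantile normalization (-1.34). Relative to the all-gene median under each of these, which was -0.14 for the first pair, Cav1 was at -0.93, -0.93, -1.14 and -1.21, so on that reading only the last 2 passed. Of the 10004 genes, 11.4% had a lower ratio.

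Cav2 encodes the partner with which caveolin-1 forms hetero-oligomers. Its brighter probe set, 1417327_at, read 16018 units on the old array and 8803 on the young, a log2 ratio of 0.86. The dimmer probe set, 1425955_at, read 114 and 231 units, a ratio of -1.03, so the 2 probe sets of Cav2 lay on opposite sides. Their distance of 1.89 was reached or passed by 67 (1.48%) of the 4514 genes with several probe sets above the floor, among which the median distance was 0.45. Opposite signs as such were found in 34.1% of those genes. The direction of Cav2 therefore rests on which probe set is read, and over both it was -0.08.

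Cav2 and Cav1 lie next to each other in the RefSeq gene order, with Tes before Cav2 and Met after Cav1. By the probe sets that represent the genes, the log2 ratio of Cav2 was 1.81 above that of Cav1. By the dimmer Cav2 probe set the caveolin genes lay on the same, young side.

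Plvap had a single probe set, 1418090_at, with 7606 units on the old array and 9905 on the young. The log2 ratio was -0.38 (1.30-fold), the smallest difference of the 8 genes. It stayed under 2-fold, on the young side, in all 11 settings tried, from -0.98 to -0.38.

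The 4 Ehd genes spanned 8.11 log2 units, from Ehd3 at 4.96 to Ehd2 at -3.15. Ehd3, an endosomal family member that is also known from the fenestrated endothelium of the kidney glomerulus, read 26902 units on the old array and 863 on the young by probe set 1417235_at. Its second probe set, 1417236_at, read 12156 and 466 units. The log2 ratios of these probe sets, 4.96 and 4.70, were 0.26 apart, less than the SD of 0.42 between probe sets of a gene. Both Ehd3 probe sets were above the floor on both arrays, so the fold is not a bound, and only 0.39% of the 10004 genes had a higher ratio.

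Ehd2 had 5 probe sets. The brightest, 1424157_at, read 413 units on the old array and 3653 on the young, a log2 ratio of -3.15. Probe set 1435785_at read 195 and 3549 units (-4.19), and 1459823_at read 139 and 1403 units (-3.34). Probe set 1424158_at was below the floor on the old array and read 437 on the young, which makes it at least 5.93-fold higher there. The fifth, 1427729_at, was below the floor on both arrays, at 22.4 and 25.1 units. All 4 Ehd2 probe sets that could be read were thus over 2-fold higher on the young array, and 0.81% of the 10004 genes had a lower ratio.

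Ehd4, which acts at early endosomes, had 1 probe set, 1449852_a_at, with 1487 units on the old array and 3648 on the young (log2 ratio -1.29). Ehd1, needed for return of receptors from the recycling endosome, read 1898 and 3062 units by its brightest probe set, 1416010_a_at (-0.69). The probe sets 1416011_x_at and 1448175_at gave -0.70 and -0.78, and 1416012_at gave -1.69 from 285 and 918 units. All 4 Ehd1 probe sets were on the young side, 1 of them past 2-fold. The Ehd2, Ehd4 and Ehd1 genes were thus on the side opposite to Ehd3, whose log2 ratio was 8.11, 6.26 and 5.65 above theirs.

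Pacsin3, an F-BAR protein known mainly from muscle caveolae, had low signals. Probe set 1437834_s_at read 114 units on the old array and 265 on the young (-1.22), and 1456191_x_at read 123 and 190 (-0.63). Both are of kinds that can match several transcripts. The remaining one, 1416995_at, was below the floor on the old and at 90.6 on the young array, at least 1.23-fold higher there. All 3 Pacsin3 probe sets lay on the young side, but only 1 passed 2-fold. Without the shared-sequence kinds only 1416995_at was left, so the Pacsin3 ratio of -0.30 was a lower bound on the difference. The mean over all 3 probe sets, -0.72, included that bound.

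**Figure D2:**
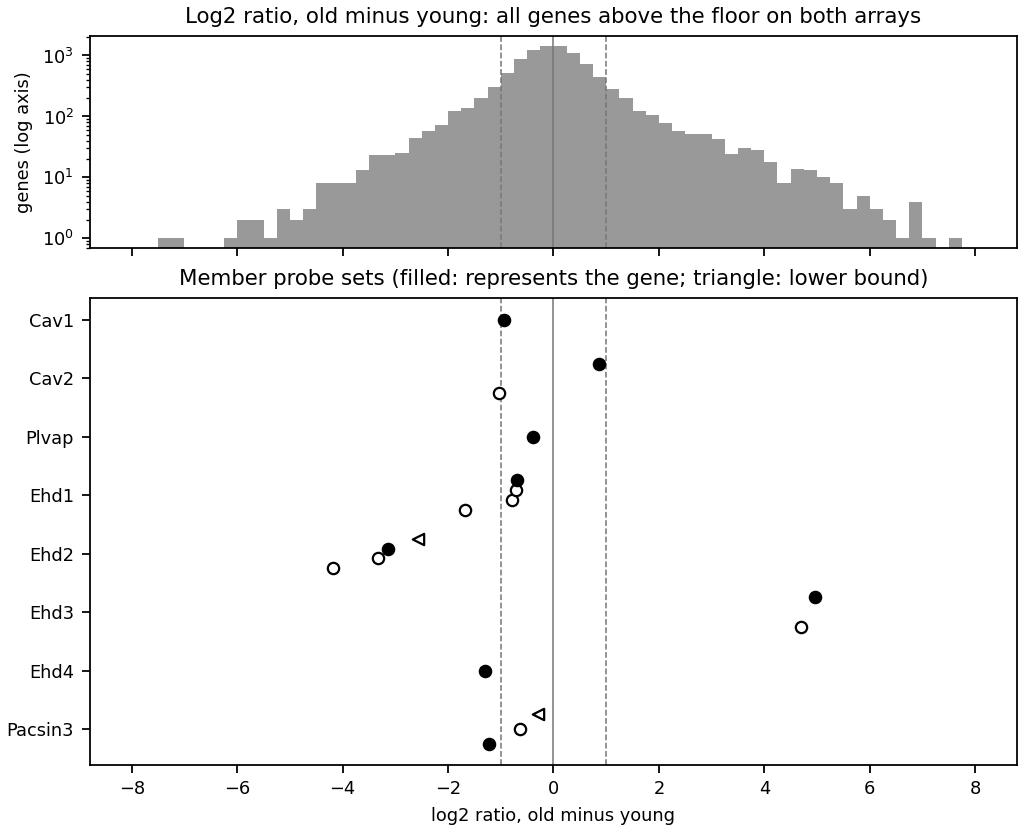
Top, number of genes (log axis) by log2 ratio, old minus young, for the 10004 genes above the floor on both arrays; bottom, the 18 readable probe sets, filled where they represent the gene and triangular where the value is a lower bound, with 2-fold dashed. Ehd3 lies near 5 and Ehd2 between -4.19 and -2.57, in opposite tails, and the Cav2 probe sets fall on opposite sides of 0.

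Over all 18 readable probe sets, 15 were on the young side, 8 of them by 2-fold or more, and 3 were on the old side, 2 of them (those of Ehd3) by 2-fold or more. Of the 24354 probe sets above the floor on at least 1 array, as these 18 were, 10.3% passed 2-fold toward the young and 14.2% toward the old sample. Of the 5 genes with several probe sets, all but Cav2 had a single sign. Probe sets of a gene repeat the probes and not the mice.

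Of 5 further genes of the caveolar coat, 3 were above the floor, and 2 of these were past 2-fold, both on the young array. Cavin3, which links caveolae to trafficking, was 14.5-fold higher on the young array, at 347 against 5021 units. Cavin1, without which caveolae do not form, read 1983 on the old array and 4540 on the young (log2 ratio -1.19, with probe sets up to -0.49). Cavin2, which shapes the caveolar membrane, read 16812 and 10457 units (0.69, with probe sets down to 0.26). Cav3 and Cavin4, the muscle forms, were below the floor on both arrays. The median of the 3 coat genes, -1.19, did not stay past 2-fold under every alternative. It was -0.74, the value of Cavin1, when probe sets were averaged, which left Cavin3 alone past 2-fold. It was -0.25 with a lower floor (the 25 percentile of the signals), which admitted Cav3, and -0.08 with an offset added to each signal in place of a floor. With 2 of 3 coat genes past 2-fold on the young and 0 on the old array, the background is 11.3% and 16% of the 12105 genes above the floor on at least 1 array. That background holds for the lists that follow, in which a value below the floor was set to it, so that such ratios are lower bounds.

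Among 19 dynamins and BAR-domain proteins, which pinch off and curve membranes, 15 were above the floor. Of these 4 were past 2-fold on the young array and 1 on the old, with a median of 0.36 against 0.03 over the 12105 genes. The endophilin gene Sh3gl3 (11.1-fold) and the dynamin gene Dnm3 (at least 5.08-fold) were on the young side. So was the amphiphysin-type gene Bin1 (2.81-fold, with probe sets up to -0.35). The F-BAR gene Fcho2 (3.12-fold) was on the old. Of 14 measured clathrin coat and adaptor genes, 4 were past 2-fold on the old array and 2 on the young (median 0.29). Hip1r (at least 7.34-fold, with probe sets up to -0.39) and the adaptor subunit Ap2a1 (2.38-fold) lay on the young side. Snap91 (at least 3.92-fold) and the adaptor subunit Ap2s1 (2.43-fold) lay on the old. Neither flotillin gene, Flot1 (-0.61) nor Flot2 (0.24), passed 2-fold.

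Genes that work with Ehd proteins were read against the 27.3% of the 12105 genes that passed 2-fold either way. Of 7 Ehd binding partners, Micall1, a linker of recycling tubules, was 2.61-fold higher on the young and Numb, an endocytic adaptor, 3.36-fold higher on the old array (median 0.07). Of 6 other proteins with an EH domain, Itsn1 (3.49-fold) and Eps15 (2.11-fold) were past 2-fold on the old and Reps2 (at least 5.70-fold) on the young array. The probe sets of Itsn1 spread from -0.03 to 2.09, and those of Eps15 from 0.07 to 1.35. Of 19 measured recycling endosome genes 17 were within 2-fold (median -0.05). The 2 that were not were on the young side, the Rab11 effector gene Rab11fip5 at 12.1-fold (553 against 6673 units) and the transferrin receptor gene Tfrc at 8.25-fold (195 against 1612 units).

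Of 7 receptor and transport genes of endothelial uptake above the floor, 5 were past 2-fold on the old array and 0 on the young, with a median of 2.73. They included the fatty acid receptor gene Cd36 (110-fold, from 10905 against 98.9 units), the lipase anchor gene Gpihbp1 (35.7-fold), the receptor gene Lrp1 (at least 9.59-fold) and the Fc receptor gene Fcgrt (6.65-fold). The log2 ratios of the Cd36 probe sets ran from 4.52 to 7.10. Nos3, whose product binds caveolin-1, had a log2 ratio of 0.37, and the receptor gene Acvrl1 one of 0.19, with a dimmer probe set at -1.80.

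**Figure D3:**
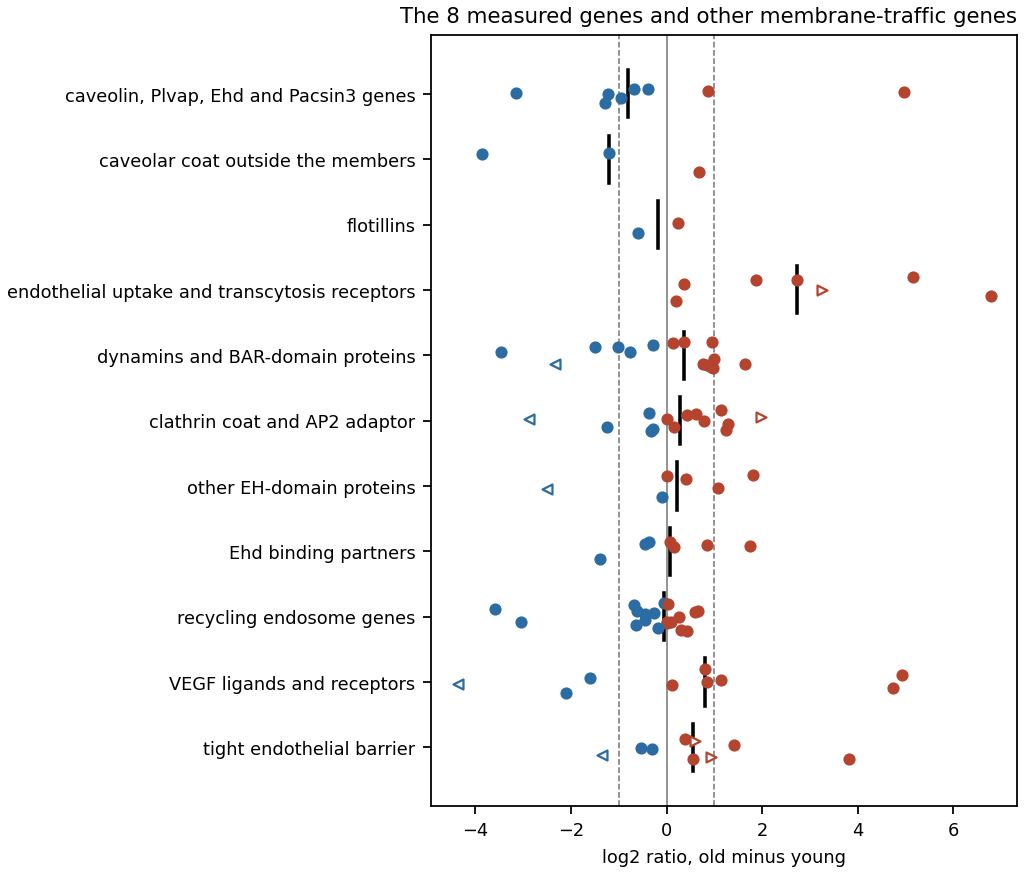
Log2 ratio (old minus young) of each measured gene in the 8 genes examined and 10 lists of membrane-traffic and vascular genes; open triangles are lower bounds, black bars medians and dashed lines 2-fold. The uptake genes have a median of 2.73, 5 of 7 beyond 2-fold on the old side, the recycling endosome genes centre at -0.05, and the caveolar coat has a median of -1.19 from 3 genes.

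VEGF, a known inducer of fenestrae, and its receptors were split, with 3 of 9 genes past 2-fold on each side (median 0.81). On the old side lay the receptor genes Flt1 (30.3-fold) and Nrp1 (26.8-fold), and on the young side the ligand genes Pgf (at least 20.8-fold) and Vegfa (4.30-fold). Log2 ratios of single probe sets went down to 2.75 for Flt1 and 2.73 for Nrp1, and up to -1.48 for Vegfa. The young side also held the receptor gene Nrp2 (3.02-fold), whose probe sets ran from -1.67 to 0.58. Of 9 measured genes of the tight endothelial barrier, 2 were past 2-fold on the old array, Jam2 (14.1-fold) and Esam (2.68-fold). On the young array 1 was, Ocln (at least 2.53-fold), and the median was 0.56. The 2 probe sets of Ocln lay on opposite sides, at -1.34 and 0.21. Those of Jam2 ran from 1.41 to 3.81.

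The labelled cell type was checked against 12 pan-endothelial markers, all of which were above the floor on both arrays. Of these 5 were past 2-fold on the old array and 1 on the young, with a median of 0.59 and a summed signal of 149378 against 87921 units. Robo4 (9.12-fold), Tek (5.91-fold), Esam (2.68-fold), Eng (2.54-fold) and Kdr (2.21-fold) were higher on the old array. Emcn (2.17-fold) was higher on the young, and Pecam1 and Cdh5 were among the 6 within 2-fold. In bulk samples, fewer cells of a type and less RNA per cell cannot be told apart. With the pan-endothelial median set to 0, a scaling chosen after the data were seen, Cav1 (-1.54) and Ehd1 (-1.28) also passed 2-fold on the young side, Plvap did not (-0.98), and Ehd3 remained on the old side (4.37).

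Markers of other endothelial types also differed in signal between the arrays. Of 11 sinusoidal endothelial markers, all measured, 9 were past 2-fold on the old array and 0 on the young (median 5.70), with a summed signal of 229191 against 28837 units. Mrc1, Bmp2, Oit3, Dnase1l3, Gata4 and Clec1b were below the floor on the young array, while Stab1 and Lyve1 were within 2-fold. Of 7 measured lymphatic markers, 5 were past 2-fold on the young array and 0 on the old (median -5.23), summing to 35086 units on the old and 64662 on the young. Flt4, also in the VEGF list, made up 18035 of the old and 10262 of the young units. Lyve1, also in the sinusoidal list, made up 14902 and 16120. Prox1 and Nts were below the floor on the old array, and the median was -3.04 with a higher floor (the 75 percentile). Of 8 measured lung capillary markers, 4 were past 2-fold on the old array and 2 on the young (median 1.83), summing to 45590 and 13508 units, and Car4 and Fibin were below the floor on both. That median was 1.05 with the lower floor and 0.72 with the offset, where it no longer passed 2-fold. Of the lung capillary sums, Gpihbp1, also in the uptake list, made up 32563 units on the old array and 911 on the young. Ednrb made up 1280 and 11300. The 3 genes whose log2 ratio was nearest to that of Ehd3, among 8796 genes at 147 units or more on both arrays, were Fcgr2b (4.96), Apoe (4.95) and Stab2 (4.98), of which Fcgr2b and Stab2 are in the sinusoidal list. With 2 arrays this likeness is a single ratio, and 9 genes lay within 0.1 of Ehd3. The probe sets of Fcgr2b ran from 4.96 to 8.88, so its nearness to Ehd3 rests on the probe set that represents it. The part of these cell types in the Ehd2 and Ehd3 values was not tested.

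Other cell types rich in caveolae were covered as well. Alveolar type 1 markers had 3 of 4 measured genes past 2-fold on the young and 1 on the old array (median -1.47), summing to 2462 against 8168 units, of which Pdpn, also in the lymphatic list, made up 1880 and 6918. The median was -0.28 with the lower floor and -0.10 with the offset, short of 2-fold. Aqp5, Rtkn2, Cldn18 and Akap5 were below the floor on both arrays. Of the adipocyte markers on the array only Fabp4, also expressed in endothelium, was above the floor (-0.20), and Adipoq, Lep, Retn and Cidec were not. Markers of fibroblasts (6 of 7, summing to 22914 against 332 units), of pericytes and smooth muscle (7 of 9, 24469 against 465) and of heart and skeletal muscle (6 of 7, 10053 against 203) were past 2-fold on the old array. Cav1 and Cavin1, which fibroblasts and smooth muscle are also known to express, had log2 ratios of -0.94 and -1.19. The part of these cell types in the Cav1 and Cavin1 values was not tested.

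Of markers of cells poor in caveolae, 7 of 8 pan-leukocyte genes (14235 against 1798 units), 8 of 9 macrophage genes (19613 against 555) and 9 of 9 measured hepatocyte genes (18765 against 449) were past 2-fold on the old array. So were 6 of 6 mesothelial genes (12305 against 139 units), mesothelium itself being rich in caveolae. Alveolar type 2 markers had 1 of 3 measured genes past 2-fold on the old array (2326 against 2068 units), and Sftpc, Sftpa1 and Slc34a2 were below the floor on both. Their part in the values of the caveolin, Plvap, Ehd and Pacsin3 genes was not tested.

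**Figure D4:**
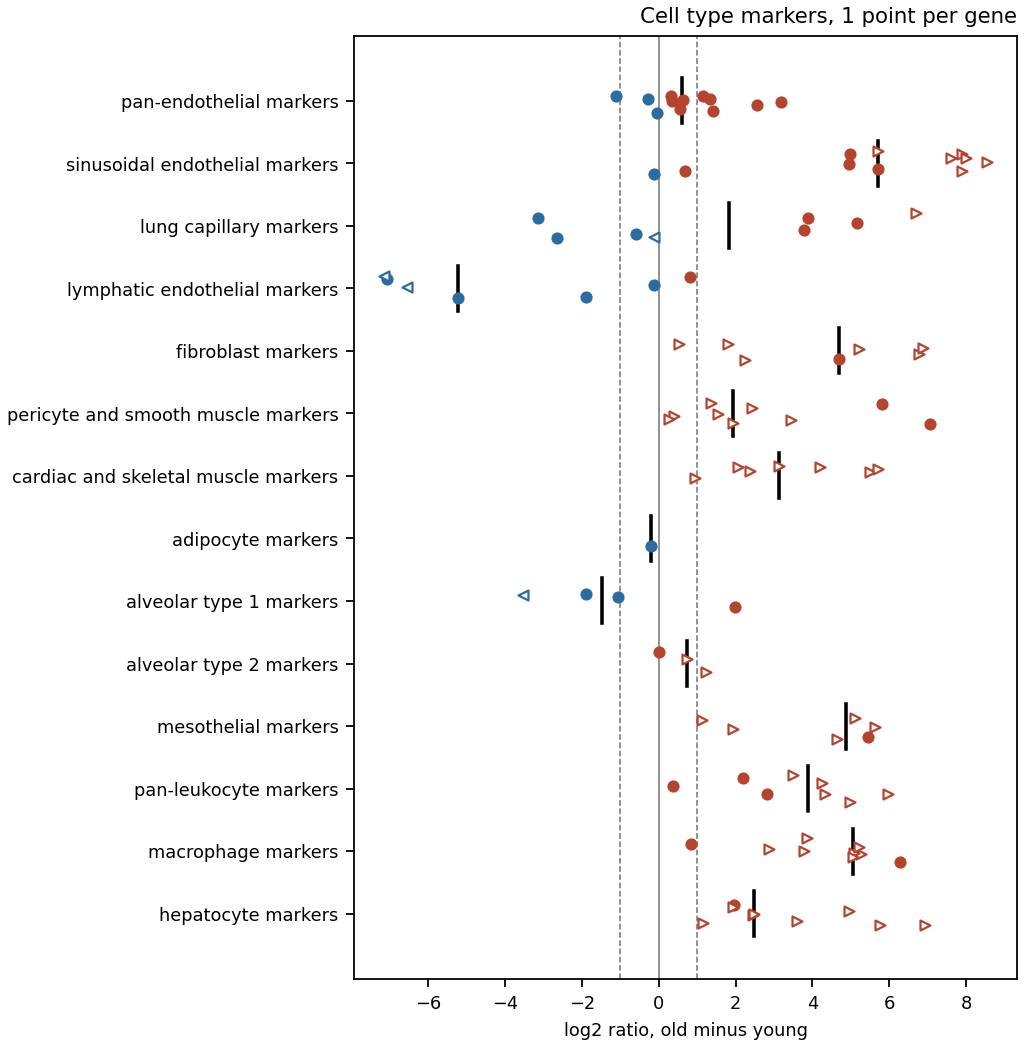
Log2 ratio (old minus young) of each measured marker gene in 14 cell type lists; open triangles are lower bounds, black bars medians and dashed lines 2-fold. The sinusoidal markers have a median of 5.70 and the lymphatic markers of -5.23, and the pan-endothelial markers centre at 0.59.

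The side of each gene was compared over the 10 alternatives. Ehd3 (4.37 to 4.96), Ehd2 (-3.74 to -2.90) and Ehd4 (-1.89 to -1.27) kept their side and stayed past 2-fold in every one. The Ehd2 value of -2.90 came with the higher floor (489 units), to which its old signal was set, so it is a lower bound on the difference. Cav1 passed 2-fold in 5 of 11 settings, Ehd1 in 1, and Plvap and Cav2 in 0. Pacsin3 passed it in 8 of 10 and had no value with the higher floor.

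**Figure D5:**
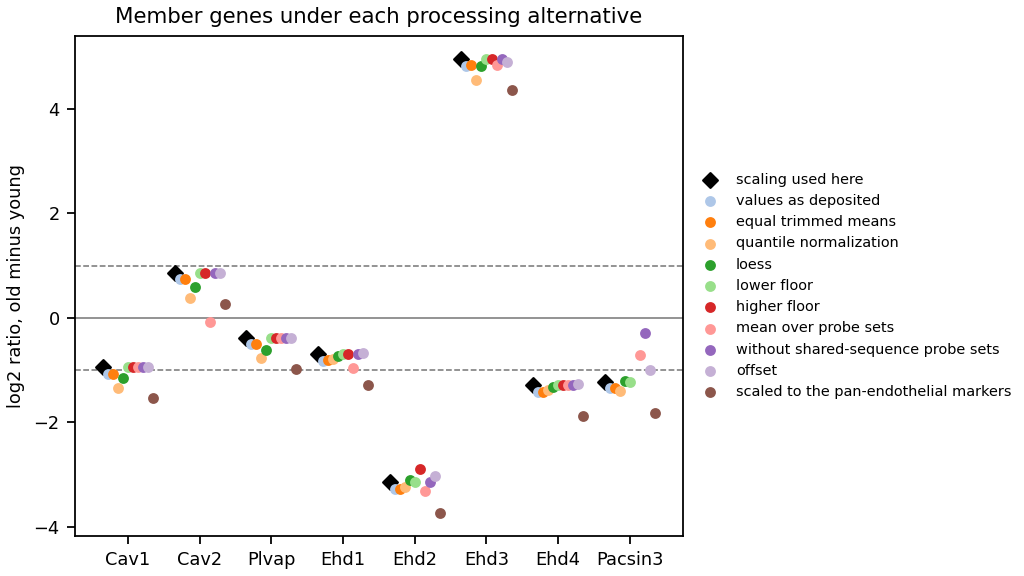
Log2 ratio (old minus young) of the 8 genes with the scaling used here (diamonds) and under each processing alternative (circles), with 2-fold dashed. Ehd3, Ehd2 and Ehd4 stay beyond the dashed lines, Cav1 straddles the lower one and Cav2 falls to -0.08 when its probe sets are averaged.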

How the data were processed

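The authors deposited a MAS5 signal intensity for each probe set, not log-transformed, made with GCOS 1.4 and MAS5 per the submitters' processing notes. With 2% trimmed from either end, both arrays had a mean of 500.003, and detection calls and scanner files were not used here. After leaving out 64 control probe sets, the arrays were multiplied by 1.05 (old) and 0.956 (young), which set the median log2 ratio of probe sets above their array's median to 0 (it was -0.13 as deposited). Each gene was represented by its probe set of highest mean log2 signal. Where 1 array was below the floor, its value was set to the floor. Symbols came from a platform annotation of 2016 (34945 probe sets with 1 symbol, 34741 matched to RefSeq by gene identifier, 0 symbols changed). Named genes were the 9 listed and the members of each other list with the largest ratios, up to 4. Others were named as list members after their values were seen. These were Acvrl1, Clec4f, Clec4g, Ednrb, Emcn, Flt4, Kdr, Nrp2, Pdpn, Stab1, Gata4, Clec1b, Lyve1, Flot1, Flot2, Nos3 and markers cited as within 2-fold or below the floor. The genes and lists were chosen with earlier results of these data known. Protein sequences were not used here, so the planned identity comparison was not made. Sequences are from RefSeq, GRCm38.p6. The array values name no build. Alternatives were other scalings (as deposited, equal trimmed means, quantile, loess with span 0.4), floors at the 25 and 75 percentiles (lower and higher), the mean over probe sets, leaving out the _x_at and _s_at kinds (shared-sequence probe sets) and an offset of 0.5 times the floor. The steps were tested on simulated data, in Python 3.11.15 with numpy 2.4.6, pandas 2.3.3, scipy 1.17.1, statsmodels 0.14.6 and matplotlib 3.10.9.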

Additional observations from a re-analysis of the deposited data

How the results depend on the processing

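The log2 ratios of the 8 genes moved by more than the probe-set SD of 0.42 for Cav2 with quantile normalization (0.37) and over its probe sets (-0.081), and for Pacsin3 over its probe sets (-0.72) and when shared-sequence probe sets were dropped (-0.30). The number of genes past 2-fold toward the old sample was 1937, against 2964 with the lower and 986 with the higher floor. Toward the young sample it was 1366, against 607 with the higher floor, where fewer genes could be read. Genes past 2-fold on the young array among the 8 numbered 4 with the 4 planned scalings (as deposited, equal trimmed means, quantile, loess), in which Cav1 was added, and 2 over all probe sets, with the higher floor or when shared-sequence ones were dropped. Scaling to the pan-endothelial markers, an alternative chosen after seeing the data, lowers every ratio by the same amount, 0.59, which is more than that SD. It gave -1.54 for Cav1, 0.27 for Cav2, -0.98 for Plvap, -1.28 for Ehd1, -3.74 for Ehd2, 4.37 for Ehd3, -1.89 for Ehd4 and -1.82 for Pacsin3, and 5 genes past 2-fold on the young array. The median ratio over all genes was -0.14 on the deposited values and with equal trimmed means and -0.12 with quantile normalization, against -0.02. Of the 13 lists with a median past 2-fold, 10 stayed past it under every alternative applied to the lists. The caveolar coat, the lung capillary and the alveolar type 1 lists did not. Signals close to the floor limit Pacsin3 and the dimmer Cav2 probe set. No paired analysis was possible because each age has 1 array.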

Other observations

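In the RefSeq gene order the coding neighbours of the 8 genes were read as well, a look chosen after the data were seen. Of 14 neighbours outside the 8 genes, 10 could be read on both arrays. Of those, 3 passed 2-fold, beside 22.4% of all genes so read. The other 7 lay between -0.84 and 0.58. Xdh, which encodes xanthine dehydrogenase and follows Ehd3, had a log2 ratio of 4.70 on the old side, while Galnt14 before Ehd3 was below the floor on both arrays. The neighbours of Ehd2, Nop53 (0.58) and Bicra (0.45), were within 2-fold, beside -3.15 for Ehd2. Around the caveolin pair, Tes (-1.56) and the HGF receptor gene Met (-3.41) were past 2-fold on the young side, beside -0.94 for Cav1.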
